A study of Mus musculus with 12 samples.

Results

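The effect of I-BET151 was examined in KPC cells, a line of mouse pancreatic cancer whose genotype is labelled C57BL/6. The 3 libraries of cells given I-BET151 at 1 µM for 48 h were set against the 3 control libraries, 6 of the 12 libraries of the study, over all 17340 genes with counts. The libraries were assigned to the groups by their titles. The other 6 libraries came from cells given JQ1 or ITF2357 at the same dose and time. They entered the model through the estimate of spread, the choice of genes with enough counts and the mean level of each gene, and JQ1 was also used as a second point of comparison. With the 2 groups alone 16352 genes were tested. The control is labelled both as untreated and as having received PBS, and no solvent of I-BET151 is named. All cells grew in DMEM with fetal bovine serum. KPC lines come from pancreatic tumours of genetically engineered mice. The labels state no driver allele, and all groups share this 1 line. Separate cultures are not named for the 3 libraries of a group, so p-values reflect the spread between these samples alone, and that spread may be technical.

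I-BET151 is a quinoline-based dimethylisoxazole that occupies the acetyl-lysine pocket of BET proteins such as BRD2 and BRD3. These proteins bind acetylated histones at promoters and enhancers, and help bring the elongation kinase P-TEFb to paused RNA polymerase. Loss of BET binding is known for lowering genes that depend on large enhancers, among them Myc in many tumour lines. Pancreatic ductal carcinoma cells range from an epithelial, mucin-making form to a mesenchymal, matrix-degrading form.

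Library totals were 21.9 to 23.2 M counts in control and 22.2 to 25.6 M counts with I-BET151. Replicates correlated across genes with r from 0.991 to 0.993, which describes genes of a library and not independent samples. Levels are given as CPM, counts per M library counts after TMM scaling, as mean ± SD of 3 libraries. CPM is not corrected for gene length, so it compares a gene between libraries and not genes with each other. All 16 markers of pancreatic ductal and carcinoma cells were measured, and their summed level was 7571 to 7647 CPM in control libraries. Markers of other cell types were scarce: 3 of 11 fibroblast, 4 of 19 macrophage and leukocyte, 5 of 11 endothelial and 2 of 22 acinar and endocrine markers were measured, and the others were not analysed here. The composition of the libraries differed between the groups. Malat1, a nuclear long non-coding RNA, took 2.65% ± 0.0359 of counts in control and 7.26% ± 0.129 with I-BET151 (SD, n = 3). Mitochondrially encoded genes took 2.27% ± 0.0486 and 3.88% ± 0.0750, and nuclear protein-coding genes 85.8% ± 0.0514 and 81.2% ± 0.0480. The part of these shifts in the results was not tested, and scalings that treat them differently are given beside the counts.

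The breadth of the response was the first question. At a Benjamini-Hochberg adjusted p under 0.05 in edgeR's quasi-likelihood test, 10945 of 17340 genes differed between I-BET151 and control, which is 63.1% of the genes tested. Of these, 5297 genes (30.5%) were higher and 5648 (32.6%) lower with I-BET151. The sizes were unequal: 854 genes (4.93%) were at least 2-fold higher and 1875 (10.8%) at least 2-fold lower, together 2729 genes (15.7%). Beyond 4-fold there were 102 genes higher and 641 lower, and beyond 16-fold 9 higher and 104 lower. The median log2 fold change was 0.48 among the genes called higher, -0.65 among those called lower and -0.03 over all genes tested. Because called genes were so common, each gene group below is read against these shares. The balance of directions depended on the scaling. Higher genes made up 48.4% of the calls with TMM factors, 33% with plain library totals (median of all genes shifted by -0.16 on the log2 scale) and 41.7% with totals of nuclear protein-coding genes alone. Medians of gene groups below that are close to the shift of -0.16 in size depend in part on the scaling. None of these scalings can show a change in the amount of RNA per cell.

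**Figure D1:**
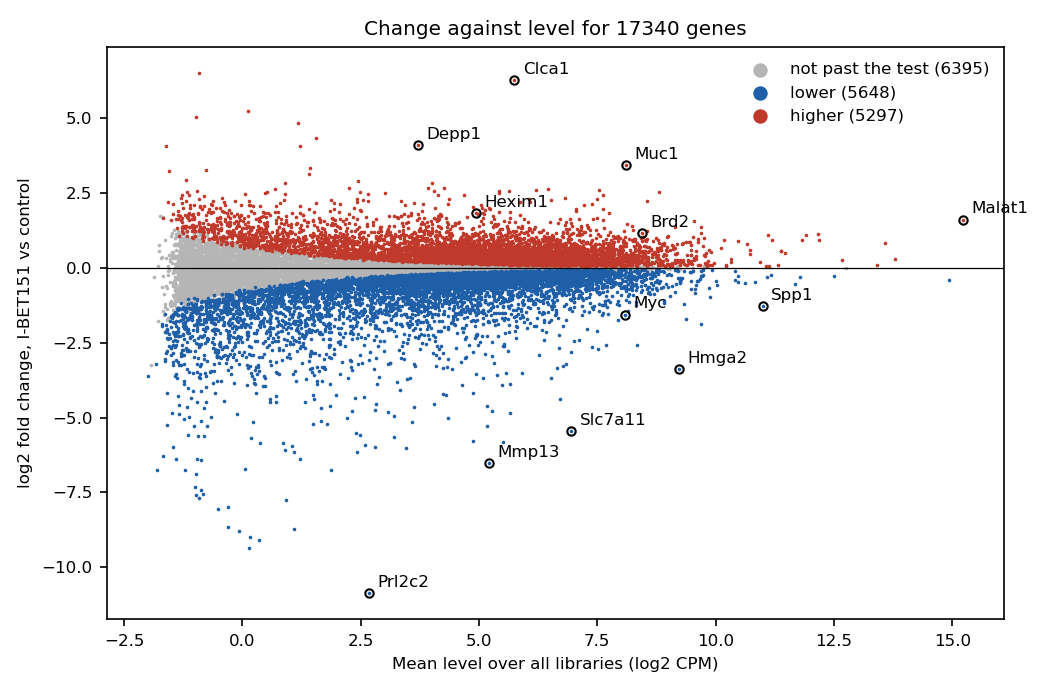
Fitted log2 fold change of each gene, I-BET151 against control (y axis), against its mean log2 CPM over all libraries (x axis), with genes past the test coloured by direction and grey points not past it. The cloud reaches further down than up: 641 genes lie beyond a 4-fold decrease and 102 beyond a 4-fold increase, and genes with 0 counts after I-BET151 sit at fitted values that are not bounds.

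Level and direction were linked across genes. When genes were divided into 10 equal bins by mean log2 CPM, the share called higher went from 7.61% in the lowest bin to 55.9% in the highest. The share called lower was 19% in the lowest bin, reached 40% in the sixth and was 32.6% in the highest. Falls of at least 2-fold followed the opposite course, from 18.9% of the lowest bin to 3.06% of the highest. The median log2 fold change went from -0.20 to 0.12 over the same range. A small change passes the test more easily in a gene with many counts, so the shares called mix power with effect. The medians do not rest on the test, but they are not free of the design. Mean level included the I-BET151 libraries, and low genes could enter through counts in the other groups alone. With the 2 groups alone, 16352 genes were kept and the median over all of them was -0.01. How much of the trend this accounts for was not tested.

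**Figure D2:**
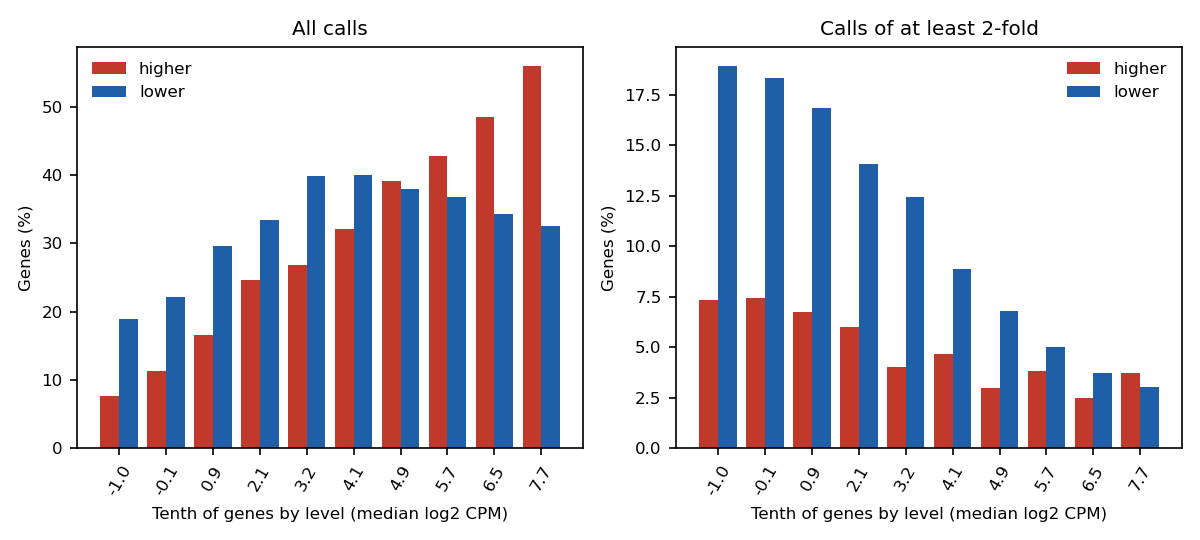
Share of genes called higher and lower, in total (left) and by at least 2-fold (right; y axis, percent), in each of 10 bins of mean log2 CPM from the lowest to the highest (x axis, 1734 genes each). Calls of at least 2-fold lower are most common in the lowest bin, at 18.9%, and calls of any size higher in the highest bin, at 55.9%.

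Gene types differ in level, so their values stand beside those of the level bins. Of 137 snoRNA genes, 0.730% were higher and 29.2% lower, with a median log2 fold change of -0.45. Processed pseudogenes, of which 1369 were measured, had a median of -0.18, and 106 snRNA genes a median of -0.21, where the 2 lowest level bins had -0.20 and -0.17. Among 1520 long non-coding RNA genes, 16.9% were at least 2-fold lower and 8.82% at least 2-fold higher, where the next level bins up from the lowest had 18.3% and 16.8% lower. Of 12665 protein-coding genes, 10.9% and 4.63% passed these limits, with a median of -0.01. Reads of a snoRNA can come from the intron of its host gene, so the levels of a snoRNA and its host cannot be told apart in these counts.

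**Figure D3:**
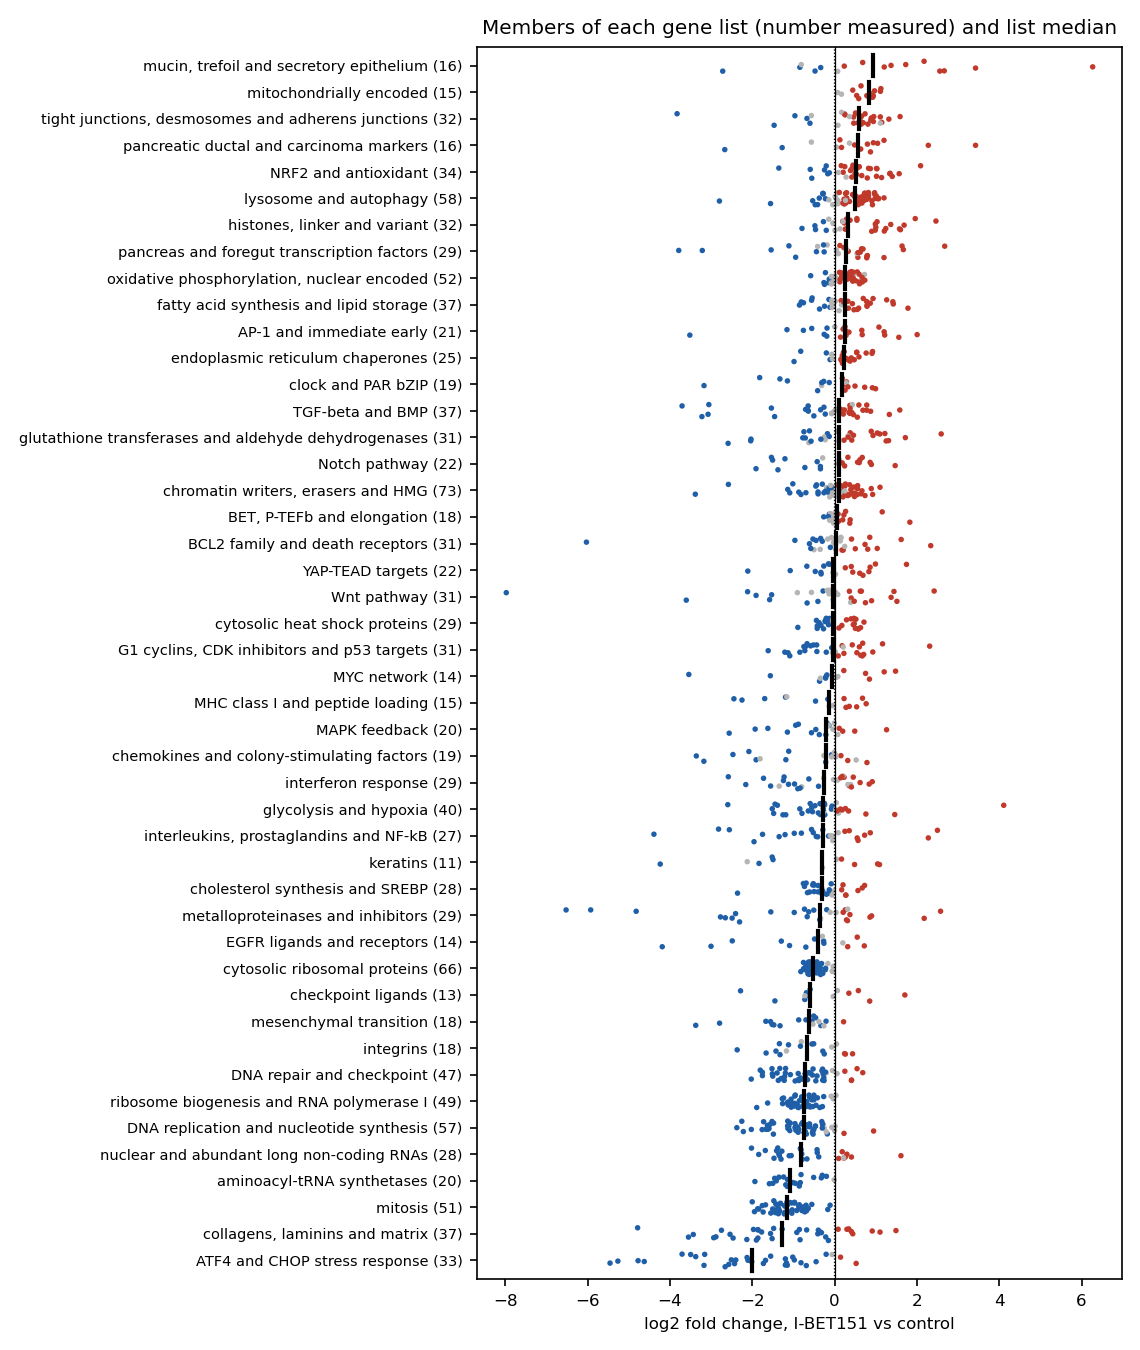
Fitted log2 fold change of every measured member (points, x axis), I-BET151 against control, for each gene list (y axis, number measured in brackets), red where higher, blue where lower and grey where not past the test, with the list median as a bar. The 4 lists of markers of other cell types are not drawn, and the lowest point of the Wnt list is Dkk2, a fitted value with 0 counts after I-BET151 and no bound. The lists of the ATF4 and CHOP stress response (median -2.01), matrix (-1.27), mitosis (-1.16) and aminoacyl-tRNA synthetases (-1.08) lie farthest to the left, and mucin and secretory genes (0.94) and mitochondrially encoded genes (0.84) farthest to the right.

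The targets of the compound and their partners came first. Of 18 genes of the BET proteins, P-TEFb and elongation, 9 were higher and 3 lower, with a median log2 fold change of 0.07. That median was -0.09 with library totals and -0.01 with protein-coding totals, so the list as a whole had no direction. Hexim1, whose product holds P-TEFb in an inactive complex, stood at 17.4, 17.5 and 15.6 CPM in the control libraries and 55.3, 64.3 and 59.2 CPM with I-BET151. The groups did not overlap, and the log2 fold change was 1.83 ± 0.07 SE (edgeR adjusted p = 2.24e-22). Brd2 (chr17:34112023-34122634, - strand), a BET gene itself, measured 254, 263 and 256 CPM in control and 579, 569.8 and 576 CPM after treatment, a rise of 2.23-fold that was larger than any spread between replicates (edgeR adjusted p = 4.00e-28). Brd3, another BET gene, changed by -0.03 ± 0.03 SE and did not pass (edgeR adjusted p = 0.470). Further parts of the inactive P-TEFb complex rose by less, Mepce, which caps the 7SK RNA, by 0.38 ± 0.06 SE and Larp7, which binds it, by 0.37 ± 0.05 SE. Cdk9, the kinase of P-TEFb, changed by -0.26 ± 0.05 SE and Aff4, a scaffold of the super elongation complex, by -0.15 ± 0.02 SE.

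Myc and its relatives were divided. Of 14 genes of the MYC network, 5 rose and 6 fell (median -0.07, and 0.05 when the 2 groups were fitted alone). Myc had 383, 396 and 399 CPM in control and 132, 138 and 129 CPM with I-BET151, and the groups did not overlap (-1.56 ± 0.03 SE, edgeR adjusted p = 3.02e-31). Mycl, a paralog, fell from 6.59 ± 0.624 to 0.577 ± 0.364 CPM (-3.54 ± 0.23 SE). In the other direction Mycn rose from 2.13 ± 0.246 to 5.97 ± 0.589 CPM (1.48 ± 0.16 SE), and Mxd4, whose product competes with MYC for MAX, from 33.9 ± 1.68 to 78.2 ± 2.05 CPM (1.20 ± 0.05 SE).

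Genes for making ribosomes fell almost throughout. Of 49 genes of ribosome biogenesis and RNA polymerase I, 46 fell, 12 of them at least 2-fold, and 0 rose, with a median of -0.75. The largest falls were those of Cmss1 (-1.89 ± 0.13 SE), Tcof1, a nucleolar factor for ribosomal RNA transcription (-1.63 ± 0.05 SE), Dkc1, the pseudouridine synthase of box H/ACA particles (-1.27 ± 0.06 SE), and Rrp9 (-1.26 ± 0.09 SE). Nop56, a core protein of box C/D particles, went from 264 ± 0.662 to 112 ± 2.00 CPM (-1.24 ± 0.03 SE). Of 66 cytosolic ribosomal protein genes, 61 fell and 0 did so by 2-fold, so this group moved together by a smaller step (median -0.53). Rpl35 changed by -0.82 ± 0.04 SE, Rps19 by -0.76 ± 0.04 SE and Rpsa by -0.72 ± 0.03 SE. Ribosomal protein genes have many processed pseudogenes, between which reads could be divided.

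Host genes of snoRNAs and other long non-coding RNAs formed a related group. Of 28 abundant or nuclear long non-coding RNAs, 20 fell, 12 at least 2-fold, and 7 rose, with a median of -0.81. Snhg12 changed by -2.02 ± 0.09 SE, Zfas1 by -1.68 ± 0.05 SE, Snhg1 by -1.47 ± 0.04 SE and Gas5 by -1.30 ± 0.03 SE, all of which carry snoRNAs in their introns. Malat1 (chr19:5795690-5802672, - strand) took the opposite course, from 26021, 25527 and 25451 CPM to 76744, 79349 and 79278 CPM (1.61 ± 0.02 SE, edgeR adjusted p = 3.98e-35). Neat1, its neighbour and the scaffold RNA of paraspeckles, changed by 0.10 ± 0.02 SE, and by -0.06 with library totals.

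The HMGA genes, which encode DNA-bending chromatin proteins, were among the 10 largest losses of CPM. Hmga2 (chr10:120361275-120476469, - strand) measured 1159, 1147 and 1141 CPM in the control libraries and 106, 113 and 111 CPM with I-BET151. No treated library came near the control range, and the log2 fold change was -3.38 ± 0.03 SE (edgeR adjusted p = 8.83e-41). Hmga1, which has a close copy in Hmga1b, fell from 597 ± 6.61 to 99.8 ± 2.76 CPM (-2.58 ± 0.03 SE). Both belong to a list of 73 chromatin writers, erasers and HMG genes that was otherwise divided, with 35 higher, 19 lower and a median of 0.10 (-0.06 with library totals). Suv39h1 and Suv39h2, H3K9 methyltransferase genes, changed by -1.09 ± 0.04 SE and -1.14 ± 0.14 SE, Dnmt1, the maintenance DNA methyltransferase, by -0.87 ± 0.04 SE, and Kat2b, an acetyltransferase gene, rose by 1.10 ± 0.04 SE.

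The amino acid stress response had the lowest median of the 50 lists. ATF4 is a transcription factor made when amino acids run short or the endoplasmic reticulum is under stress, and it drives amino acid uptake and synthesis genes through a short sequence called the amino acid response element. Of 33 genes of the ATF4 and CHOP response, 30 fell, 25 of them at least 2-fold, and 2 rose, with a median log2 fold change of -2.01 against -0.03 over all genes. The promoters of 4 genes that fell are shown because each holds a match to TGATGNAA, searched on both strands from 250 bases before to 50 after the RefSeq start (RefSeq, GRCm38.p6), with the match in capitals (TTNCATCA where it lies on the other strand). The first base of the match lies 15 bases after the start in Trib3 (chr2:152344011-152344310, - strand), 23 before it in Asns (chr6:7693160-7693459, - strand) and 30 before it in Gars (chr6:55037751-55038050, + strand). Slc7a11 (chr3:50443564-50443863, - strand) has matches 66 and 47 bases before its start.
Trib3: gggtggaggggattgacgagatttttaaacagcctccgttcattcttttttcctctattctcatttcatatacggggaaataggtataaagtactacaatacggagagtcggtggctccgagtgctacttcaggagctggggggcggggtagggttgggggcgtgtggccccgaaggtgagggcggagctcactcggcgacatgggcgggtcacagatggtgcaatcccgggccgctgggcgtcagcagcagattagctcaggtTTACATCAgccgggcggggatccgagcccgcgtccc
Asns: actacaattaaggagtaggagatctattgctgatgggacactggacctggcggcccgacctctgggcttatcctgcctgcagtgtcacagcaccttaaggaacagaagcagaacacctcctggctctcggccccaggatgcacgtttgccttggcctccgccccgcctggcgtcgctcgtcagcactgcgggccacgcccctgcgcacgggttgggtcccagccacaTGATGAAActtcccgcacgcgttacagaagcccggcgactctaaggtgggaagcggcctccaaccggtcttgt
Slc7a11: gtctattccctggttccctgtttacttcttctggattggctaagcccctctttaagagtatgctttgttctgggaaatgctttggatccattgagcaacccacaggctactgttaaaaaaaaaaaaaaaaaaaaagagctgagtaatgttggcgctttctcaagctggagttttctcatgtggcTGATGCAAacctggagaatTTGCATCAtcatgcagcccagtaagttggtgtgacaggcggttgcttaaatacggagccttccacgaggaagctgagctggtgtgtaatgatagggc
Gars: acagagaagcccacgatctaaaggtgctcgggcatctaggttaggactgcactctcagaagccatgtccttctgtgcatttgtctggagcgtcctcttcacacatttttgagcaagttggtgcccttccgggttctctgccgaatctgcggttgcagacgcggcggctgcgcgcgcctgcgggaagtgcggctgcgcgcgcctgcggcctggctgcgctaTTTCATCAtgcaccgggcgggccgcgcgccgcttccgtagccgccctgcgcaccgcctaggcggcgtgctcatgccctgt
Matches were present in 20.6% of the promoters of the ATF4 list and in 41.7% of those of the aminoacyl-tRNA synthetases, in 3.97% of all 32851 promoters and in 4.96% of those of genes at least 2-fold lower. This motif was searched after the values of the list had been seen, and a match describes the letters only.

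Genes for cystine uptake and cysteine synthesis fell steeply. Slc7a11, the cystine transporter gene, had 284, 286 and 290.5 CPM in control and 7.09, 6.04 and 6.53 CPM with I-BET151, so the highest treated library lay far below the lowest control. The log2 fold change was -5.46 ± 0.06 SE, a 43.9-fold fall (edgeR adjusted p = 1.09e-36). Cth, which makes cysteine from cystathionine, fell from 89.3 ± 1.85 to 2.30 ± 0.512 CPM (-5.27 ± 0.09 SE). Outside these steps and outside the ATF4 and CHOP list, Bcat1, a branched-chain amino acid transaminase, fell from 13.4 ± 0.614 to 0.181 ± 0.0383 CPM (-6.16 ± 0.24 SE). Trib3, a pseudokinase gene induced by ATF4 and CHOP, stood at 96.9, 94.0 and 95.4 CPM in control and 3.11, 4.26 and 2.99 CPM after treatment (-4.78 ± 0.09 SE, edgeR adjusted p = 6.22e-31).

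Of further genes of the ATF4 and CHOP list, Asns, Phgdh, Psat1, Mthfd2 and Sesn2 were named after their values were seen. Asns, asparagine synthetase, measured 231, 238 and 239 CPM in control and 41.2, 44.5 and 45.2 CPM with I-BET151 (-2.43 ± 0.04 SE). The serine pathway genes Phgdh and Psat1 changed by -2.11 ± 0.03 SE and -2.66 ± 0.03 SE, and the mitochondrial folate genes Mthfd2 and Aldh1l2 by -3.50 ± 0.05 SE and -4.63 ± 0.08 SE. Gdf15, a stress hormone gene, changed by -3.71 ± 0.32 SE, and Sesn2, a leucine sensor gene, by -2.01 ± 0.07 SE. The transcription factor gene Atf4 itself fell less, from 357, 374 and 361 CPM to 162, 158 and 155 CPM (-1.20 ± 0.03 SE), and Ddit3, which encodes CHOP, changed by -0.82 ± 0.08 SE. Slc7a3, a cationic amino acid transporter gene, rose by 0.52 ± 0.15 SE, and Nupr1 by 0.14 ± 0.05 SE, a call lost with library totals (-0.02) and without each of 3 single libraries in turn (0.10 to 0.13). Ddit4, an inhibitor of mTORC1, did not pass (-0.06 ± 0.04 SE, edgeR adjusted p = 0.229).

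Enzymes that charge tRNAs also fell. Of 20 cytosolic aminoacyl-tRNA synthetase genes, 19 were lower, 11 at least 2-fold, and 0 higher (median -1.08). Cars changed by -1.94 ± 0.04 SE, Lars by -1.59 ± 0.04 SE, Nars by -1.50 ± 0.03 SE, Iars by -1.46 ± 0.03 SE and Gars by -1.24 ± 0.03 SE. Dars, the aspartyl enzyme, was the member that did not pass (-0.01 ± 0.04 SE, edgeR adjusted p = 0.834).

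The endoplasmic reticulum branch did not fall with the ATF4 genes. Of 25 chaperone and unfolded protein response genes, 19 rose and 4 fell, with a median of 0.23 and none past 2-fold. Calr, a calcium-binding lectin chaperone, rose by 0.77 ± 0.03 SE, Sdf2l1 by 0.92 ± 0.13 SE and P4hb, protein disulfide isomerase, by 0.59 ± 0.02 SE. Among the sensors, Ern1, which encodes IRE1, changed by -0.99 ± 0.04 SE and Atf6 by -0.82 ± 0.03 SE. Of 29 cytosolic and organelle heat shock genes, 13 rose and 14 fell. Subunits of the CCT chaperonin such as Cct5 (-0.44 ± 0.03 SE) and the mitochondrial chaperonin gene Hspd1 (-0.89 ± 0.03 SE) were lower, and Hspa1b (0.71 ± 0.08 SE) and Dnajb1 (0.58 ± 0.06 SE) higher.

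Genes of cell division were lower throughout. All 51 measured members of the mitosis list fell, 33 of them at least 2-fold, with a median of -1.16. In bulk RNA, fewer cells in a cycle phase and less RNA per cell cannot be told apart. Tpx2, a spindle assembly factor gene, went from 73.3 ± 1.59 to 19 ± 0.675 CPM (-1.95 ± 0.05 SE), Aurka, the spindle pole kinase, from 21.4 ± 0.432 to 5.87 ± 0.766 CPM (-1.87 ± 0.09 SE) and Ube2c, a ubiquitin-conjugating enzyme of the anaphase-promoting complex, from 31.8 ± 0.990 to 9.57 ± 0.914 CPM (-1.74 ± 0.08 SE). Plk1 changed by -1.40 ± 0.12 SE and Ccnb1, cyclin B1, by -1.45 ± 0.08 SE. Cdc20, an activator of the anaphase-promoting complex, stood at 11.5, 12.1 and 11.4 CPM in control and 4.03, 5.57 and 5.56 CPM with I-BET151 (-1.20 ± 0.11 SE, edgeR adjusted p = 1.19e-11). Its promoter (chr4:118437294-118437593, - strand; RefSeq, GRCm38.p6) is shown for the CHR motif TTTGAA, here in capitals (TTCAAA where it lies on the other strand), which begins 18 bases before the start.
Cdc20: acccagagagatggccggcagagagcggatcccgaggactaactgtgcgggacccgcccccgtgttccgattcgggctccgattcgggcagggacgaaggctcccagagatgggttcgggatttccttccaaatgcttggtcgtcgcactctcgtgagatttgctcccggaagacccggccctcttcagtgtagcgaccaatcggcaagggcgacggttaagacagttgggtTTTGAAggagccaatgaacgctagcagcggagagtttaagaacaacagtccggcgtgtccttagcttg
On both strands, TTTGAA was found in 75.6% of the promoters of mitosis genes and in 17.9% of all promoters, and CCAAT in 73.3% and 37.4%. CCAAT was not particular to lists that fell. It was found in 86.4% of promoters of the endoplasmic reticulum chaperone list, which mostly rose, and in 76.2% of those of the clock list, which was divided.

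DNA replication and repair followed. Of 57 replication and nucleotide synthesis genes, 50 fell, 20 at least 2-fold, and 2 rose (median -0.75). The licensing factor gene Cdt1 fell from 40 ± 0.683 to 7.68 ± 0.873 CPM (-2.38 ± 0.08 SE), the helicase loading gene Cdc45 by -2.25 ± 0.11 SE, and Tk1, thymidine kinase, by -2.02 ± 0.08 SE. Ppat (0.95 ± 0.04 SE) and Paics (0.23 ± 0.03 SE), adjacent genes of purine synthesis, were the members that rose. The E2F motif TTTNGCGC, on both strands, was found in 23.2% of the promoters of this list, in 1.38% of all promoters and in 2.29% of those of measured genes. It was found in 10% of promoters of the repair and checkpoint list, which mostly fell. The share was 9.68% in the heat shock list, which was divided, and 9.09% in the nuclear oxidative phosphorylation list, which mostly rose. Of 47 repair and checkpoint genes, 39 fell and 5 rose, with Exo1, an exonuclease gene, at -1.81 ± 0.11 SE, Fancd2 at -1.75 ± 0.10 SE and H2afx, a histone variant gene, at 0.68 ± 0.09 SE. Regulators of G1 were divided, with 13 of 31 higher and 15 lower. Ccne1, cyclin E1, changed by -1.61 ± 0.21 SE, Ccnd1 by -1.21 ± 0.02 SE and Ccnd2 by -0.71 ± 0.02 SE, whereas the antiproliferative gene Btg2 rose by 2.31 ± 0.04 SE and Gadd45b by 1.17 ± 0.09 SE. Trp53 fell from 153 ± 3.03 to 76.2 ± 0.756 CPM (-1.01 ± 0.03 SE). The counts do not tell mutant from wild-type alleles.

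Secreted proteases and matrix gave the next large falls. Of 29 metalloproteinase and inhibitor genes, 16 fell, 9 at least 2-fold, and 9 rose (median -0.36). The deepest falls were of 3 neighbours on chromosome 9, collagenase 3 (Mmp13), stromelysin 1 (Mmp3) and stromelysin 2 (Mmp10). Their promoters (RefSeq, GRCm38.p6) are shown because each holds the AP-1 motif TGANTCA, searched on both strands and printed in capitals. It begins 35 bases before the start in Mmp13 (chr9:7272264-7272563, + strand), 46 before it in Mmp3 (chr9:7445572-7445871, + strand) and 63 before it in Mmp10 (chr9:7502092-7502391, + strand).
Mmp13: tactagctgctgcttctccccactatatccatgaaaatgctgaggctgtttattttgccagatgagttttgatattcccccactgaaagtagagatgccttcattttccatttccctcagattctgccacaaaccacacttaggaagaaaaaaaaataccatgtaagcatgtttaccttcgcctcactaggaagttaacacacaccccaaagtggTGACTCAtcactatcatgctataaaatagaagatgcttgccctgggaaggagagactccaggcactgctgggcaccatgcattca
Mmp3: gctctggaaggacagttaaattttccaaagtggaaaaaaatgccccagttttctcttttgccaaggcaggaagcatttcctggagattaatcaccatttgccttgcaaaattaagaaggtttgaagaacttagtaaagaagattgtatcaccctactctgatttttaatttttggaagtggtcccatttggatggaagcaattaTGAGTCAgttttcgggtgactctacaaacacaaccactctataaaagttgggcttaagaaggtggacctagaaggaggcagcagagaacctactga
Mmp10: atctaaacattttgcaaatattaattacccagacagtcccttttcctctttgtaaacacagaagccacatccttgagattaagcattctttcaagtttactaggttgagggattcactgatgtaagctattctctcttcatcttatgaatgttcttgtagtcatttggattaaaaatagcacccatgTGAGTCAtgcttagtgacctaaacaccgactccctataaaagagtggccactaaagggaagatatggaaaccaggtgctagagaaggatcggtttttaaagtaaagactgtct
Of 20 promoters in the protease list, 4 held the motif, against 7.81% of all promoters, 10.6% of those of genes at least 2-fold lower and 5.65% of those of genes at least 2-fold higher. The 3 promoters shown are among these 4. Lists that mostly rose also held it, in 25% of 8 mucin and secretory promoters, 18.2% of 22 endoplasmic reticulum chaperone promoters and 7.14% of 56 lysosome promoters.

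Mmp13 had 67.6, 67.5 and 66.9 CPM in control and 0.437, 0.760 and 0.965 CPM with I-BET151. Mmp3 had 12.1, 13.7 and 13.3 CPM and 0.582, 0.549 and 0.230 CPM. Mmp10 had 9.56, 9.76 and 9.20 CPM and 0.0971, 0.253 and 0.0919 CPM. Each treated library was below 1 CPM and each control library above 9 CPM, and the log2 fold changes were -6.52 ± 0.12 SE, -4.82 ± 0.18 SE and -5.93 ± 0.23 SE (edgeR adjusted p = 3.33e-31, 4.68e-22 and 1.95e-21). Further falls were those of the membrane proteases Adam8 (-2.49 ± 0.08 SE) and Adam12 (-2.77 ± 0.16 SE). In contrast Mmp15, a membrane-anchored metalloproteinase gene, rose from 16.3 ± 0.662 to 97.1 ± 1.77 CPM (2.57 ± 0.05 SE), the sheddase gene Adam10 by 0.90 ± 0.03 SE and the inhibitor gene Timp2 by 0.86 ± 0.02 SE.

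All 37 measured matrix genes passed the test, 29 lower, 19 of them at least 2-fold, and 8 higher, with a median of -1.27. Among the largest falls, Col8a1 changed by -4.79 ± 0.25 SE, Col6a2 by -3.55 ± 0.10 SE, Col5a3 by -3.43 ± 0.39 SE and Fbln2, a fibulin gene, by -1.86 ± 0.03 SE. The basement membrane laminin genes Lama3 and Lamb2 rose by 1.49 ± 0.11 SE and 1.10 ± 0.04 SE. Of 18 integrin genes, 11 fell and 3 rose. Itga5, of the fibronectin receptor, changed by -1.33 ± 0.05 SE and Itga6, of laminin receptors, by -1.12 ± 0.02 SE, while its partner Itgb4 rose by 0.44 ± 0.05 SE. Of 18 mesenchymal transition genes, 14 fell and 1 rose (median -0.62). Among its transcription factors Prrx1 changed by -3.37 ± 0.28 SE, Snai1 by -2.80 ± 0.26 SE, Snai2 by -1.56 ± 0.07 SE and Zeb2 by -1.52 ± 0.04 SE, and Cdh2, N-cadherin, was the member that rose (0.22 ± 0.03 SE), a call lost with library totals (0.06, edgeR adjusted p = 0.139).

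Growth factor genes and the readouts of RAS signalling fell in part. Of 14 EGFR ligand and receptor genes, 9 fell and 3 rose (median -0.39). Areg, amphiregulin, stood at 55.7, 52.0 and 51.7 CPM in control and 3.40, 2.07 and 3.36 CPM with I-BET151 (-4.19 ± 0.09 SE, edgeR adjusted p = 1.08e-28). Epiregulin (Ereg) changed by -2.49 ± 0.07 SE, betacellulin (Btc) by -3.0 ± 0.11 SE and the receptor gene Egfr by -0.70 ± 0.06 SE, whereas the receptor genes Erbb2 and Erbb3 rose by 0.55 ± 0.04 SE and 0.72 ± 0.08 SE. Of 20 feedback genes of the MAPK pathway, 12 fell and 4 rose. The ETS factor gene Etv4 changed by -2.56 ± 0.09 SE and the ERK phosphatase gene Dusp5 by -1.93 ± 0.04 SE, while the phosphatase gene Dusp1 rose by 1.26 ± 0.04 SE.

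AP-1 genes moved in opposite directions. Of 21 AP-1 and immediate early genes, 13 rose and 7 fell (median 0.25). Fosl1, which encodes FRA-1, fell from 102, 104 and 109 CPM to 8.98, 8.70 and 9.84 CPM (-3.52 ± 0.06 SE, edgeR adjusted p = 4.03e-32). Fos rose from 16.2, 15.6 and 16.5 CPM to 63.6, 62.8 and 67.8 CPM (2.01 ± 0.06 SE, edgeR adjusted p = 2.23e-25). The groups were apart for both genes. Jun rose by 1.56 ± 0.06 SE and Klf4, a zinc finger factor gene of differentiated epithelium, by 1.20 ± 0.04 SE, and Egr3 changed by -1.16 ± 0.08 SE.

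Other signalling lists had no common direction. Of 22 YAP-TEAD targets, 9 rose and 9 fell, with the well-known targets Ccn1 (0.61 ± 0.02 SE) and Ccn2 (0.83 ± 0.03 SE) higher. Of 37 TGF-beta and BMP genes, 18 rose and 14 fell (median 0.11, and -0.05 with library totals). Its largest fall was that of Gdf15 (-3.71 ± 0.32 SE), named above. Next came extracellular parts, the latent TGF-beta binding proteins Ltbp2 (-3.22 ± 0.13 SE) and Ltbp4 (-3.06 ± 0.11 SE) and the BMP antagonist Grem1 (-3.07 ± 0.15 SE). The activin subunit Inhba changed by -1.54 ± 0.05 SE. In the Wnt list, 11 of 31 rose and 9 fell. Lef1 (-3.60 ± 0.42 SE) and Tcf7 (-1.91 ± 0.08 SE), the nuclear partners of beta-catenin, were lower, while beta-catenin itself (Ctnnb1, 0.90 ± 0.02 SE), the receptor gene Fzd5 (1.51 ± 0.03 SE) and the ligand gene Wnt4 (2.42 ± 0.10 SE) were higher. In the Notch list, 10 of 22 rose and 9 fell (median 0.10, and -0.06 with library totals). The receptor gene Notch1 rose by 1.47 ± 0.05 SE and the target gene Hes1 by 0.86 ± 0.05 SE, whereas Rbpj, the DNA-binding partner of Notch, changed by -1.21 ± 0.03 SE and the ligand gene Jag2 by -1.51 ± 0.05 SE.

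Epithelial and secretory genes were among the largest rises. Of 16 mucin, trefoil and secretory genes, 10 rose, 8 at least 2-fold, and 4 fell, with a median of 0.94. Muc1 (chr3:89229057-89233381, + strand), a membrane mucin, measured 69.5, 71.1 and 70.3 CPM in control and 781, 742 and 742 CPM with I-BET151, a 10.7-fold rise (edgeR adjusted p = 2.79e-38). Clca1, a secreted regulator of mucus, measured 1.83, 2.92 and 2.50 CPM in control and 188, 184 and 187 CPM with I-BET151. Treated libraries of both genes lay far above every control library. The gel-forming mucin gene Muc5ac rose from 4.86 ± 0.175 to 30.8 ± 0.0643 CPM (2.66 ± 0.10 SE), Muc4 from 5.92 ± 1.18 to 34.9 ± 2.85 CPM (2.56 ± 0.10 SE) and the trefoil factor gene Tff1 from 1.47 ± 0.291 to 6.66 ± 0.604 CPM (2.17 ± 0.18 SE). Creb3l1, a membrane-bound transcription factor gene, fell against its list (-2.72 ± 0.10 SE).

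**Figure D4:**
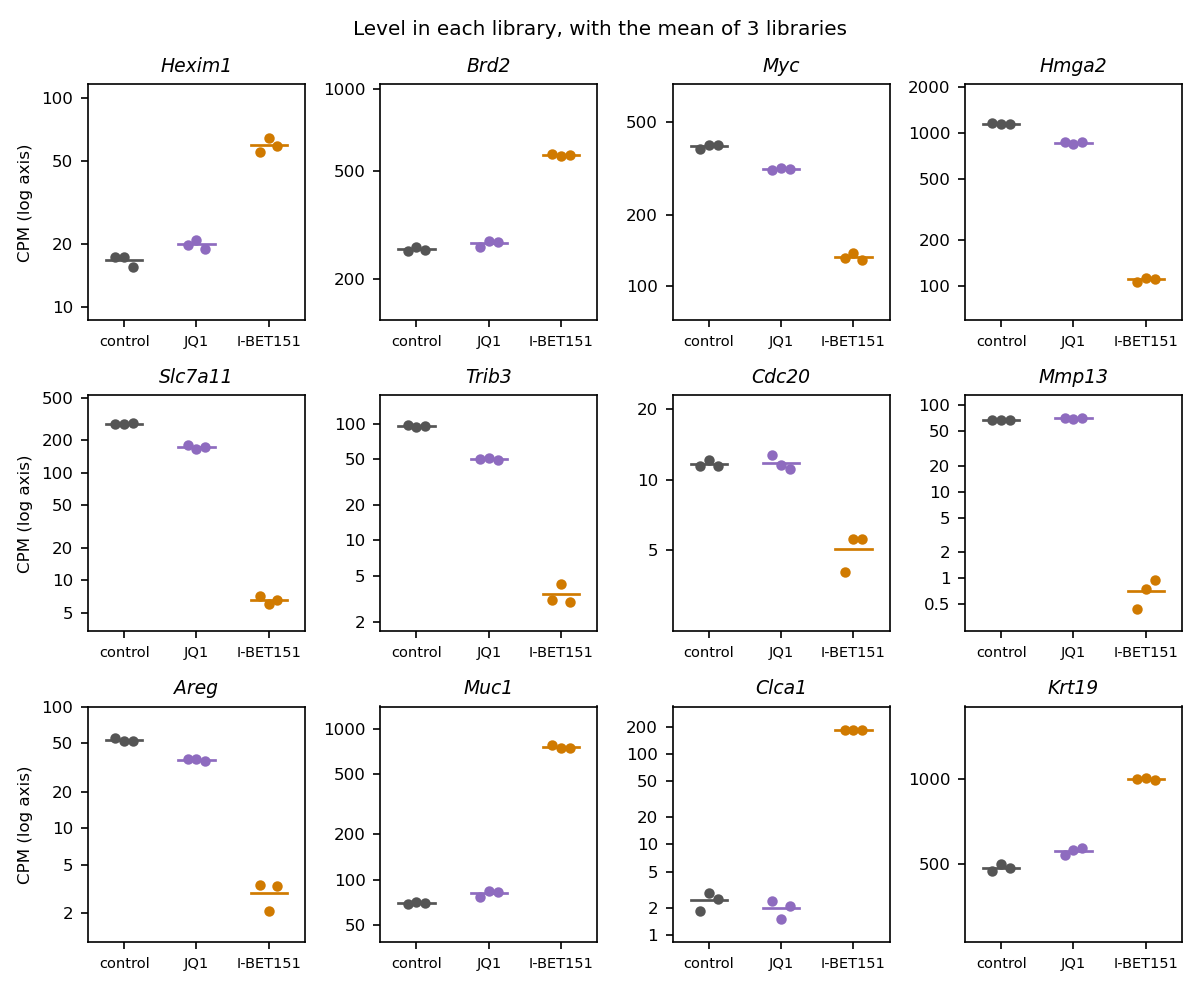
CPM on a log axis (y) of 12 genes in each library (points) of the control, JQ1 and I-BET151 groups (x), with the mean of 3 libraries as a bar. I-BET151 libraries stand apart from both other groups for every gene shown, for example 742 to 781 CPM of Muc1 against 69.5 to 71.1 CPM in control.

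Cell junctions shifted with them. Of 32 genes of tight junctions, desmosomes and adherens junctions, 22 rose and 5 fell (median 0.60). Cdh1, E-cadherin, stood at 772, 789 and 780.4 CPM in control and 1492, 1492 and 1512 CPM with I-BET151 (0.94 ± 0.02 SE, edgeR adjusted p = 1.06e-28). Occludin (Ocln) rose by 1.32 ± 0.09 SE and desmoplakin (Dsp) by 0.95 ± 0.04 SE, while plakophilin 1 (Pkp1), a desmosome protein of stratified epithelium, changed by -3.83 ± 0.15 SE. Epcam did not pass (0.36 ± 0.22 SE, edgeR adjusted p = 0.152), but did without control replicate 2 (0.56, edgeR adjusted p = 0.0488). Of 11 keratins, 4 rose and 4 fell. Krt19, a keratin of ducts, rose from 474, 500.2 and 484 CPM to 1001, 1009 and 998 CPM (1.04 ± 0.02 SE), Krt20 by 1.09 ± 0.04 SE and Krt7 by 0.49 ± 0.03 SE. Krt8 rose by 0.17 ± 0.02 SE, a call lost with library totals (0.01, edgeR adjusted p = 0.785), and Krt18 did not pass (0.05 ± 0.02 SE). The Krt18 call depended on the setting, higher with RLE size factors (0.06, edgeR adjusted p = 0.0327) and lower with library totals (-0.11, edgeR adjusted p = 4.78e-05). Keratins Krt23 (-4.24 ± 0.12 SE) and Krt80 (-1.50 ± 0.07 SE) fell.

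Among 29 transcription factor genes of pancreas and foregut, 15 rose and 8 fell (median 0.29). Casz1 rose from 5.76 ± 0.815 to 36.9 ± 1.24 CPM (2.68 ± 0.09 SE) and Elf3, an epithelial ETS factor gene, from 16.6 ± 2.15 to 52.9 ± 0.560 CPM (1.67 ± 0.07 SE). Onecut2 rose by 0.80 ± 0.02 SE and Gata6 by 0.62 ± 0.05 SE. Insm1, an endocrine progenitor gene, changed by -3.79 ± 0.50 SE and Trp63, a marker of basal-like cells, by -3.22 ± 0.66 SE. Pdx1 did not pass (0.09 ± 0.06 SE). Sox9 changed by 0.13 ± 0.04 SE (edgeR adjusted p = 0.0128), a call lost in several alternatives and reversed in sign with library totals (-0.03).

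Immune signalling genes fell more often than they rose. Of 19 chemokine and colony-stimulating factor genes, 9 fell, 7 at least 2-fold, and 3 rose (median -0.22). Csf2, GM-CSF, fell from 3.47 ± 0.453 to 0.335 ± 0.104 CPM (-3.36 ± 0.28 SE) and Ccl2, a monocyte attractant, from 6.89 ± 1.27 to 1.62 ± 0.163 CPM (-2.08 ± 0.17 SE). Of 27 interleukin, prostaglandin and NF-kB genes, 15 fell and 8 rose. The receptor antagonist gene Il1rn fell from 133 ± 4.47 to 6.36 ± 0.399 CPM (-4.39 ± 0.05 SE), Ptgs2, the inducible cyclooxygenase, from 215 ± 5.81 to 30.5 ± 1.64 CPM (-2.82 ± 0.04 SE) and Lif by -1.96 ± 0.06 SE. Il18 rose from 2.77 ± 0.226 to 15.7 ± 2.42 CPM (2.50 ± 0.13 SE) and Lcn2, lipocalin 2, from 1.82 ± 0.0776 to 8.82 ± 1.17 CPM (2.28 ± 0.16 SE).

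Of 29 interferon response genes, 12 fell and 9 rose, and Igtp (-2.58 ± 0.33 SE) and Xaf1 (-2.16 ± 0.22 SE) fell most. MHC class I and peptide loading genes were evenly divided, 6 of 15 higher and 6 lower: Tap2, of the peptide transporter, changed by -2.25 ± 0.39 SE, whereas tapasin (Tapbp) rose by 0.68 ± 0.04 SE and B2m by 0.23 ± 0.03 SE. Of 13 checkpoint ligand genes, 6 fell and 4 rose. Cd276, B7-H3, changed by -0.72 ± 0.05 SE and Lgals9, galectin 9, rose by 0.85 ± 0.03 SE. Cd274, PD-L1, had 5.50 ± 0.371 CPM in control and 5.77 ± 0.309 CPM with I-BET151 and did not pass (edgeR adjusted p = 0.686).

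The few measured markers of other cell types mostly fell. The summed level of 3 fibroblast markers went from 21.8 to 22.8 CPM in control to 6.75 to 7.72 CPM with I-BET151, that of 4 macrophage and leukocyte markers from 114 to 118 CPM to 59.1 to 64.0 CPM, and that of 5 endothelial markers from 5.94 to 7.38 CPM to 2.07 to 2.41 CPM. Of the 2 measured acinar markers, Cela1 changed by -3.13 ± 0.24 SE and Amy1 by 0.98 ± 0.32 SE, a call lost without I-BET151 replicate 3 (0.73, edgeR adjusted p = 0.0736). Mrc1, the mannose receptor of macrophages, made most of the leukocyte fall, from 65.8, 66.7 and 67.4 CPM to 0.922, 1.60 and 0.919 CPM (-5.83 ± 0.09 SE), while Cd14 rose by 0.37 ± 0.04 SE and Cd68 did not pass (0.02 ± 0.13 SE). The ductal markers summed to 9673 to 9736 CPM with I-BET151. Whether these counts came from the cancer cells or from other cells in the culture was not tested.

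Oxidant defence genes were mostly higher. Of 34 NRF2 and antioxidant genes, 25 rose, 9 at least 2-fold, and 7 fell (median 0.52). This list does not hold Slc7a11 (-5.46 ± 0.06 SE), which was counted with the ATF4 genes. Gclc, the catalytic subunit for glutathione synthesis, rose from 73.0, 70.9 and 69.7 CPM to 293, 299 and 317 CPM (2.09 ± 0.04 SE, edgeR adjusted p = 1.11e-29). Ftl1, the ferritin light chain, rose by 1.57 ± 0.02 SE, catalase (Cat) by 1.35 ± 0.03 SE and the microsomal hydrolase gene Ephx1 by 1.40 ± 0.05 SE. Hmox1, heme oxygenase, changed by -0.55 ± 0.06 SE and Nqo1 by -1.36 ± 0.44 SE, a call lost without I-BET151 replicate 1 (-1.03, edgeR adjusted p = 0.0563). The antioxidant response motif TGACNNNGC, on both strands, was found in 32.4% of the promoters of this list and in 12.4% of all promoters. The share was 14.3% for measured genes. It was 32.4% in the ATF4 and CHOP list, which mostly fell, and 31.8% in the endoplasmic reticulum chaperone list, which mostly rose. The motif was thus not particular to this list or to genes that rose. This motif overlaps the AP-1 motif where TGACTCA is followed by GC. Among glutathione transferases and aldehyde dehydrogenases, 14 of 31 rose and 11 fell. Gsta4 rose from 60.9 ± 0.369 to 367 ± 5.60 CPM (2.59 ± 0.03 SE), and Aldh18a1, which makes proline precursors, fell from 244 ± 4.82 to 59.3 ± 0.864 CPM (-2.04 ± 0.03 SE).

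Lysosome genes were also mostly higher. Of 58 lysosome and autophagy genes, 40 rose and 10 fell (median 0.49). Cathepsin A (Ctsa) rose by 1.01 ± 0.03 SE, cathepsin H (Ctsh) by 1.05 ± 0.05 SE, the proton pump subunit Atp6v0d1 by 1.20 ± 0.05 SE and the autophagy kinase gene Ulk1 by 1.07 ± 0.05 SE. Atg9b (-2.80 ± 0.09 SE) and cathepsin C (Ctsc, -1.56 ± 0.04 SE) fell against the list.

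Metabolic groups differed in direction. Cholesterol synthesis genes were lower in 19 of 28 cases and higher in 7 (median -0.30), with Insig1, a feedback regulator of the pathway, at 0.73 ± 0.03 SE. Glycolysis and hypoxia genes were lower in 25 of 40 cases and higher in 8 (median -0.27). The lactate exporter gene Slc16a3 fell from 55.5 ± 1.08 to 9.17 ± 0.131 CPM (-2.60 ± 0.07 SE) and hexokinase 2 (Hk2) from 158 ± 8.06 to 60.3 ± 1.24 CPM (-1.39 ± 0.04 SE). The hypoxia factor genes moved apart, Hif1a by -0.40 ± 0.03 SE and Epas1, which encodes HIF-2 alpha, by 1.46 ± 0.06 SE. Depp1, a FOXO target gene, rose from 2.52 ± 0.213 to 43.6 ± 3.08 CPM (4.11 ± 0.11 SE).

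Lipid and respiration lists had more genes higher than lower. The medians of the lipid list and of the nuclear oxidative phosphorylation list (0.26 each) were larger in size than the shift of -0.16 with library totals. That shift, in the median of all genes, was still not small beside them. The median of the mitochondrially encoded genes (0.84) lay well above it. In the highest level bin, 55.9% of genes were called higher, with a median of 0.12. Of 37 genes of a list of fatty acid synthesis and lipid storage, which also holds some genes of fat oxidation, 21 rose and 9 fell (median 0.26). Ppargc1a, the coactivator of mitochondrial biogenesis, rose by 1.78 ± 0.08 SE, Cpt1a, which brings fatty acids into mitochondria, by 1.43 ± 0.03 SE and Acadvl by 1.27 ± 0.05 SE, while Elovl6 changed by -0.81 ± 0.04 SE. Of 52 nuclear genes of oxidative phosphorylation, 33 rose and 7 fell (median 0.26), with Ndufa1 at 0.73 ± 0.07 SE, Cox6b1 at 0.68 ± 0.06 SE and Uqcrq at -0.58 ± 0.05 SE. Of 15 mitochondrially encoded genes, 13 rose and 0 fell (median 0.84). Their rise is the rise of the mitochondrial share given above, and Malat1 moved with it in the same libraries. The part of RNA quality in both was not tested.

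Histone genes rose in 21 of 32 cases, 10 of them at least 2-fold, and fell in 5 (median 0.33). Members of the histone clusters are near copies of each other, so their single values are uncertain. Hist1h2bc went from 16.5 ± 0.921 to 64.0 ± 1.68 CPM (1.96 ± 0.06 SE). H3f3b, a replacement histone gene with its own sequence, went from 538, 542 and 542 CPM to 1403, 1391 and 1379.9 CPM (1.36 ± 0.02 SE, edgeR adjusted p = 1.01e-32). Genes of the clock and the PAR bZIP factors were divided, 9 of 19 higher and 8 lower: Ciart, a clock repressor gene, changed by -3.17 ± 0.16 SE and Bhlhe41 by -1.82 ± 0.06 SE, while Dbp rose by 1.00 ± 0.10 SE. The BCL2 and death receptor list had 10 of 31 genes higher and 9 lower, with Bcl2l15, a BCL2 family gene, at -6.03 ± 0.17 SE (24.1 ± 1.33 to 0.367 ± 0.105 CPM), Bmf, a proapoptotic gene, at 1.62 ± 0.04 SE and Mcl1, a survival gene, at 1.04 ± 0.03 SE.

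Some genes had no count left. Prl2c2 had 651 counts over the 3 control libraries and 0 with I-BET151, at least 205-fold lower when 3 counts over the group are taken as the floor, but it has near-identical paralogs. Chrna1, a subunit of the muscle acetylcholine receptor, had 147 counts in control and 0 with I-BET151 and was at least 46.3-fold lower. Dkk2, a secreted Wnt modulator, had 88 counts and 0 and was at least 27.7-fold lower. These bounds cover counting error only.

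Genes next to each other on a chromosome were compared among measured protein-coding genes. After a gene at least 2-fold lower, the next gene was also at least 2-fold lower in 16.7% of cases, against 10.2% after a gene that was not changed by 2-fold and 10.1% after a gene at least 2-fold higher. There were 46 runs of at least 3 such genes in a row, 42 of them lower and 4 higher, which held 150 genes. Some runs hold genes with overlapping coordinates that may share reads, such as Igtp and Irgm2, and another lists the symbol St6galnac2 more than once. How many runs the shares of changed genes alone would give was not tested. Runs were sought after the data had been seen. The longest was a run of 6 interferon-inducible genes on chromosome 1, from Ifi207 to Ifi205 (chr1:173723427-174031810), near copies that may share reads, with log2 fold changes from -1.15 for Mndal to -4.24 for Ifi205. The EGFR ligand genes Ereg, Areg and Btc formed a run on chromosome 5 (chr5:91074622-91402994). Before it in gene order Cxcl1 (-0.01 ± 0.07 SE) and Mthfd2l (-0.06 ± 0.07 SE) did not pass, and after it Parm1 rose by 0.92 ± 0.03 SE and Rchy1 by 0.56 ± 0.06 SE. The gene after these, Odaph, changed by -3.31 ± 0.25 SE, so large falls nearby were not confined to the ligand genes. Mmp13, Mmp3 and Mmp10 formed a run of 238 kb on chromosome 9, followed by Tmem123, which rose by 0.89 ± 0.04 SE. A run of higher genes on chromosome 17 held Tff2, Tff1 and Slc37a1.

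**Figure D5:**
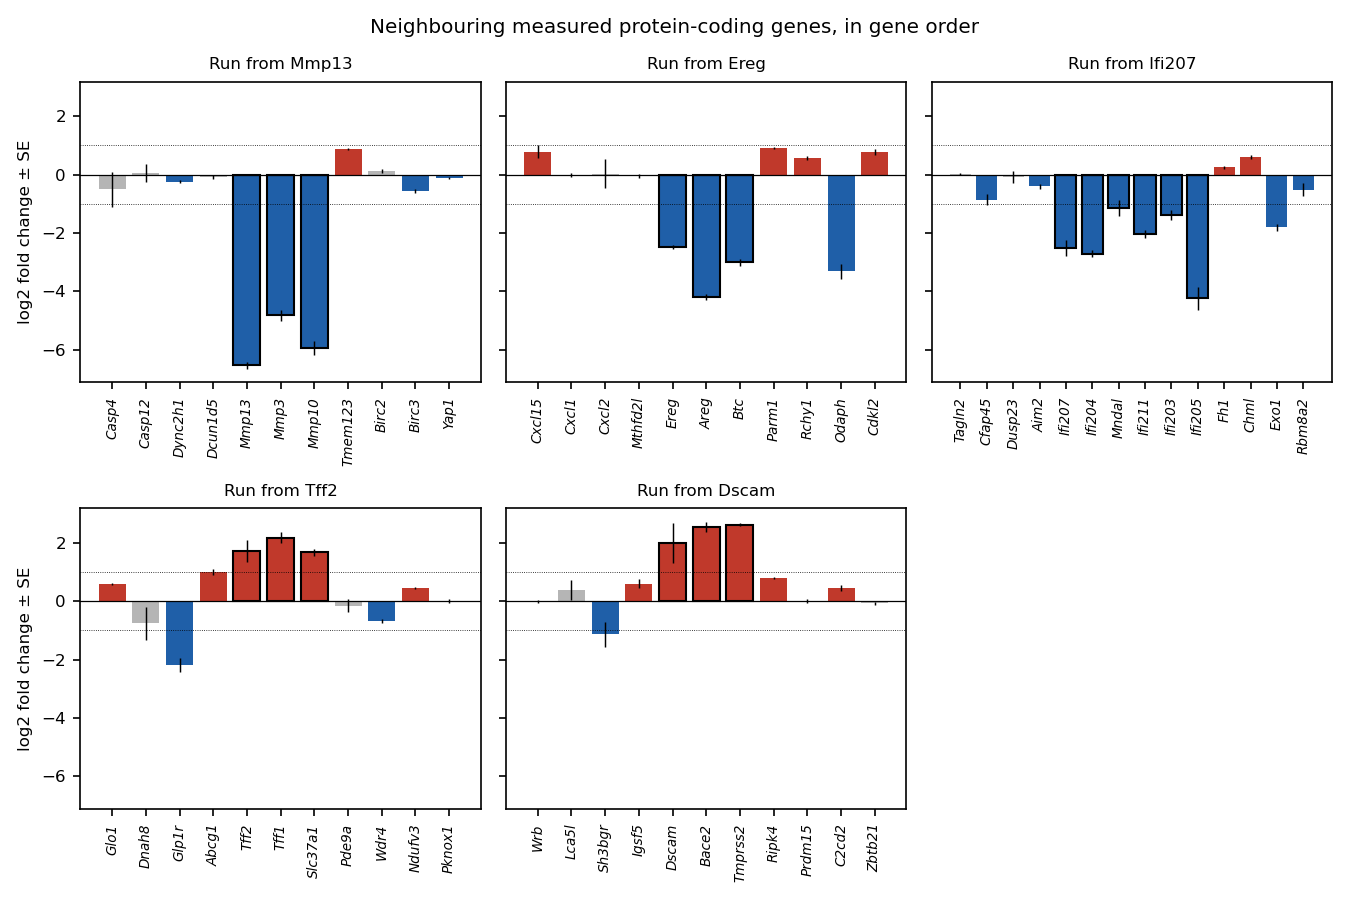
Fitted log2 fold change with standard error (y axis), I-BET151 against control, of measured protein-coding genes in their order along the chromosome (x axis) around 5 runs of genes changed at least 2-fold in 1 direction, coloured by direction where past the test and grey otherwise. Run members are outlined and dotted lines mark a 2-fold change. Mmp13, Mmp3 and Mmp10 lie between -4.82 and -6.52, while the next gene, Tmem123, is at 0.89.

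JQ1, a thienotriazolodiazepine, was the other BET inhibitor of the study, given at the same dose for the same time, and this was the 1 pair of compounds compared. I-BET151 and JQ1 libraries differed in 10480 of 17340 genes (60.4%), 5162 (29.8%) higher and 5318 (30.7%) lower with I-BET151. Of these, 549 were at least 2-fold higher and 1817 at least 2-fold lower with I-BET151. Hexim1 had 19.9, 21 and 19 CPM in the JQ1 libraries, below every I-BET151 library, a difference of 1.58 ± 0.06 SE (edgeR adjusted p = 6.35e-21). Brd2 had 264, 277 and 275 CPM with JQ1 and differed by 1.08 ± 0.03 SE. Myc had 312, 319.5 and 315 CPM with JQ1 and Slc7a11 182, 168 and 175 CPM, so both were lower with I-BET151, by -1.24 ± 0.03 SE and -4.74 ± 0.06 SE.

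Gene groups also differed between the compounds. Of 51 mitosis genes, 50 were lower with I-BET151 than with JQ1 (median difference -1.27), as were 30 of 37 matrix genes (-1.40) and 30 of 33 ATF4 and CHOP genes (-1.43). In the other direction, 25 of 34 NRF2 genes and 42 of 58 lysosome genes were higher with I-BET151. Mmp13 had 72.2, 69.0 and 71.4 CPM with JQ1 and Clca1 2.37, 1.48 and 2.10 CPM. For B2m the 95% interval of the log2 difference was -0.03 to 0.08. For Epcam, a low gene, it was -0.38 to 0.47, too wide to place the compounds. For Ddit3 the difference of 0.18 ± 0.08 SE did not pass (edgeR adjusted p = 0.0607), which does not show that the compounds act alike on it.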

How the data were processed

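RNA was extracted with TRIzol and a miRNeasy column, made into KAPA RNA HyperPrep libraries and read as paired ends on a NovaSeq instrument, per the labels' protocols. Reads were handled with edgeR 3.38.4, STAR 2.7.2a, bcl2fastq, Subread 2.0.1 and its featureCounts on build mm10, per the submitters' processing notes. RNA selection, strand use and annotation release are not given in the sources used here, so overlapping genes and close paralogs are uncertain. The authors deposited raw counts per gene and library, which were used, together with log2 CPM and RPKM values, log2 fold changes and p-values. By the p-values of the authors' deposited table, 11094 genes passed the same threshold for I-BET151 against control, 10867 of them also called here. Coordinates are those of an mm10 annotation, counted from 1.

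Counts were fitted in R 4.3.3 with edgeR 4.0.16 (TMM factors, filterByExpr, quasi-likelihood test, all 12 libraries, no covariate) with calls at an adjusted p under 0.05 (Benjamini-Hochberg, 17340 genes). Alternatives were other scalings, filters, DESeq2 1.42.0, the 2 groups alone, a replicate block and each library left out. No replicate pair agreed within sampling noise (chi-square divided by its degrees of freedom, 1.63 to 2.37 for control, JQ1 and I-BET151 and 2.74 to 5.31 for ITF2357). Promoters came from RefSeq GRCm38.p6, where 10654 of 17327 measured symbols matched. Gene lists numbered 50 and were described by counts and medians without a test. Genes were named by rule: the 20 largest rises and falls with mean log2 CPM of at least 2, the 10 largest gains and losses of CPM, from each list the 4 largest changes and the largest opposite one, the 10 highest and 10 lowest against JQ1, and a few genes of prior interest. Others were named after their values were seen, among them Asns, Atf4, Ddit3, Gars, Plk1, Cdc20, Nop56, Trp53, Epas1 and H3f3b. Some genes that the rule names are not reported here. The comparison, its members and the gene lists were chosen with earlier results of these data known.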

Additional observations from a re-analysis of the deposited data

How the results depend on the processing

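Of 14 alternatives to the comparison with control, all kept the count of genes called within 1.5 times the reported one, among them 11092 genes with library totals, 10948 with RLE size factors, 10417 with DESeq2 and 10443 of 14995 with the stricter filter. The alternative without a filter could not differ, because the filter removed none of the 17340 genes of the deposited counts. The number of genes at least 2-fold higher moved further and was 475 when only nuclear protein-coding genes, scaled by their own totals, were fitted, an alternative chosen after seeing the data that tests fewer genes. Leaving out 1 library gave 10246 to 10367 calls. With the replicate number as a block 10865 genes were called. Same-numbered libraries did not deviate together (r of -0.06, 0.01 and -0.03), which gave no sign of pairing. A lack of shared deviation cannot show that the samples were unpaired. Library totals turned the sign of Krt18 (-0.11), Sox9 (-0.0319), Nupr1 (-0.0168) and Neat1 (-0.0622). Of 486 results on named genes, 28 changed a call in some alternative, and 10 of 50 list medians changed sign, among them those of the keratins (-0.30 as reported, 0.10 with the stricter filter) and the BCL2 list (0.02 and, with library totals, -0.14). The counts of calls against JQ1 stayed within 1.5 times in each alternative run. Brd3 (-0.19), Ddit4 (-0.22) and Dars (-0.17), which did not pass as reported, passed with library totals. The cause of these moves was not tested. Genes under about 1 CPM, such as Krt4, Itga11, Ido1 and Cyp27b1, lost their calls when single libraries were left out, and at this depth smaller changes in them were not detectable.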
